A study of Mus musculus with 4 samples.

Results

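The genes described here encode the matrix metalloproteinases (Mmp), the Adamts proteases, the Adamts-like proteins (Adamtsl) and the tissue inhibitors of metalloproteinases (Timp). They were taken by symbol from the gene table that accompanies the counts, and the rule found 50 of 32285 genes, of which 22 were *Mmp*, 19 *Adamts*, 5 *Adamtsl* and 4 *Timp* genes. Leg muscles of E18.5 mouse fetuses, littermates from heterozygous dams, were dissociated with trypsin and sequenced cell by cell in droplets, where every transcript is counted once through a molecular tag (UMI). Of the 4 libraries, 2 were wild type (WT) and 2 came from fetuses lacking *SYISL* (KO), whose gene lies within *Synpo2* and gives a long non-coding RNA. The knockout was inherited and not limited to a cell type. No treatment is given for these fetuses, and their strain and the number of fetuses per library are not given in the sources used here. Both genotypes were dissociated by the same protocol.

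Mmps cut collagens, proteoglycans and other matrix proteins, either after secretion or, in the membrane-type members, at the cell surface. They are made as inactive precursors, and Mmp14 together with Timp2 activates pro-Mmp2 on the cell membrane. Adamts proteases trim procollagens, cut the large proteoglycans versican and aggrecan, or act on fibrillin microfibrils, while Adamtsl proteins share their ancillary domains and lack the protease. Timps block the active site of most Mmps, and Timp3, which stays bound to the matrix, also blocks several Adamts proteases. In fetal muscle these genes are best known from connective tissue cells, which build and remodel the matrix around the fibres.

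The deposited matrices held 41741 cell barcodes, of which 36969 passed the filters of the study's methods (8515 and 8177 WT, 9816 and 10461 KO). Total UMIs per library were between 109653824 and 126257094. Median UMIs per kept cell ran from 9118 to 11427 over the libraries, and any pair of libraries shared 21 to 41 barcodes. Clusters were named from marker genes into 10 classes, and the members described here were left out of the genes used for clustering. The largest classes were cells like fibro-adipogenic progenitors (FAP-like, 17398 cells, 47.1% of those kept) and myogenic-like cells (6730 cells, 18.2%). There were 103 and 60 neutrophil-like WT cells and 25 and 25 neutrophil-like KO cells, too few for a test, and 1932 cells stayed unnamed. In KO replicate 2 *Xist* had 131038 UMIs and the Y-linked *Ddx3y* 101, while the other 3 libraries had at most 5 UMIs of *Xist* and at least 9326 of *Ddx3y*. KO replicate 2 thus had the pattern of female cells and the other 3 libraries that of male cells, so sex was not balanced between genotypes. Its part in the KO against WT values below, those of X-linked *Timp1* included, was not tested, and each KO against WT test was repeated without KO replicate 2. No row of the gene table carries the symbol of the targeted RNA, so its loss was not checked here. Its host gene *Synpo2* had 975 and 1009 UMIs in WT and 1051 and 984 in KO.

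Levels are in CPM (counts per 1000000), a gene's UMIs scaled to the total of its class in the same library. They are means ± SD over all 4 libraries, which mixes 2 WT with 2 KO, unless single libraries are listed (in the order WT replicate 1, WT replicate 2, KO replicate 1, KO replicate 2). UMIs count the 3′ ends of transcripts and were not scaled by length, so levels were compared between classes within a gene, not between genes. Of the 50 members, 30 had a mean of at least 20 CPM in some class. These were 9 *Mmp*, 13 *Adamts*, 4 *Adamtsl* and 4 *Timp* genes. In 21 of these 30 the libraries of the highest class did not overlap those of the second. The share over all genes at this level was not computed, so the count is not read as a trait of the members. The highest class was glial-like for 7, FAP-like for 6, tenocyte-like for 5, smooth muscle or pericyte-like for 4, chondrocyte-like and neutrophil-like for 3 each and endothelial-like for 2. No member at this level was highest in myogenic-like, macrophage-like or mast-like cells.

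**Figure D1:**
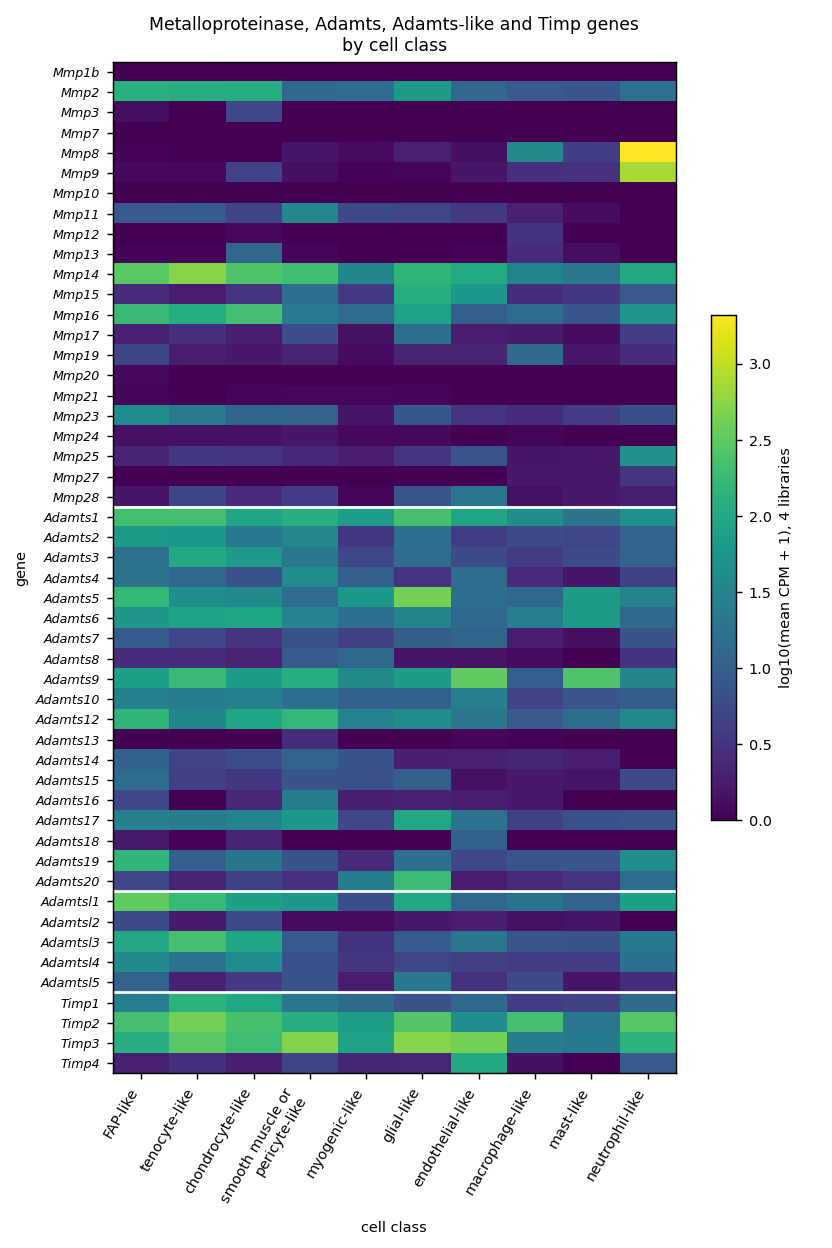
Mean level of each of the 50 members (rows, white lines between the families) in the 10 cell classes (columns), as log10(mean CPM + 1) over 4 libraries. *Mmp8* and *Mmp9* were brightest in neutrophil-like cells (2108 and 785 CPM), *Mmp14* was visible in every class, and *Mmp7* and *Mmp10* were dark in all of them.

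Of the 22 *Mmp* genes, 9 lie next to each other on chromosome 9, between bases 7272514 and 7699585 of GRCm38 (427 kb). They include collagenases (*Mmp8*, *Mmp13*, *Mmp1b*), stromelysins (*Mmp3*, *Mmp10*), matrilysin (*Mmp7*), macrophage elastase (*Mmp12*), enamelysin (*Mmp20*) and *Mmp27*. In this block 8 of the 9 genes stayed under 20 CPM in every class, the exception being *Mmp8*. Outside it, 8 of 13 *Mmp* genes reached 20 CPM. *Mmp10* had 0 UMIs in all kept cells, *Mmp7* had 1, *Mmp1b* 7, *Mmp27* 17, *Mmp12* 31 and *Mmp20* 41. A gene at 0 UMIs could still be transcribed below what this depth detects. *Mmp12* and *Mmp1b* overlap on opposite strands.

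Promoter sequences (250 bases before to 50 after the annotated start, RefSeq, GRCm38.p6) were matched by symbol for 35 of the 50 members. They are shown because the block and the other members differed in letters and in level. Each line below gives the 110 bases before the start, 5′ to 3′ on the coding strand. Capitals mark TGANTCA, the letters of the AP-1 site, and TATAA, both searched on both strands. The first 3 belong to block genes under 20 CPM in every class, the fourth to the block gene that was high in neutrophil-like cells, and the last to a membrane-type *Mmp* outside the block that was seen in every class.
Mmp13 (chr9:7272404-7272513, + strand): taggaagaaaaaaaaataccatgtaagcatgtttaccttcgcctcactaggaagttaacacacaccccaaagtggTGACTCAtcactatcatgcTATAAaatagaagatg
Mmp3 (chr9:7445712-7445821, + strand): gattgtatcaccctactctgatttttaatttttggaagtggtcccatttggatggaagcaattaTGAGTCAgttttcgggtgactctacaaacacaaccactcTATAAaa
Mmp10 (chr9:7502232-7502341, + strand): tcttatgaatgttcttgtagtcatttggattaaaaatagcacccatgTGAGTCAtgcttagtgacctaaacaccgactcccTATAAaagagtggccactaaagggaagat
Mmp8 (chr9:7558319-7558428, + strand): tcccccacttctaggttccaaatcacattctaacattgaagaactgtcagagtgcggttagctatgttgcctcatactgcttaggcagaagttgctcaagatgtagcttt
Mmp14 (chr14:54431488-54431597, + strand): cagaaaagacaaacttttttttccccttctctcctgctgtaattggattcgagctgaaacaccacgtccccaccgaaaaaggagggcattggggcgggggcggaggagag
TGANTCA occurred in 7.81% of 32851 promoters and TATAA in 24.9%. Over the block, 7 of 9 genes had TGANTCA in at least one listed promoter and 8 of 9 had TATAA. Of the 26 other members with a promoter, 0 had TGANTCA and 5 had TATAA. GC content ran from 37.7% to 52.0% (median 40.7%) in the promoters of the block and from 53.3% to 80.0% (median 66.0%) in those of the other members, against a median of 52.7% over all promoters. In *Mmp13* TGANTCA began 35 bases before the start, in *Mmp3* 46 and in *Mmp10* 63. *Mmp8* and *Mmp27* had none, and the TATAA of *Mmp8* overlapped the start and is not in the stretch shown. That of *Mmp11*, outside the block, overlapped the start too. *Mmp12* had neither match in its promoter at bases 7344147 to 7344446. In its promoter at bases 7347124 to 7347423, TATAA began 1 and 4 bases after the start. These matches describe letters in a window and do not show that a factor binds there.

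Genes known from granulocytes were highest in the neutrophil-like cells, of which the KO libraries held 25 each. *Mmp8*, the neutrophil collagenase, stood at 2128, 2510, 1906 and 1890 CPM there. All libraries were far above the next class, macrophage-like cells, at 47.2, 43.5, 18.8 and 33.8 CPM. Neutrophil-like cells held 2462 of the 2993 *Mmp8* UMIs in kept cells although they made up 0.576% of them. *Mmp9*, gelatinase B, stood at 761, 944, 717 and 718 CPM in the same cells, and its next class, chondrocyte-like cells, had a mean of 3.67 CPM. *Mmp25*, a membrane-anchored Mmp of leukocytes, stood at 46.1, 53.6, 48.7 and 52.7 CPM on 56 UMIs in all, and at 6.59 ± 1.35 CPM in endothelial-like cells. For all 3 genes the libraries of neutrophil-like cells lay above those of the second class without overlap.

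In droplet data, RNA from other cells can add UMIs to a class. In macrophage-like cells the neutrophil genes *S100a8* and *S100a9* stood at 415, 272, 112 and 172 CPM and at 178, 96.8, 80.6 and 78.3 CPM, against 20846 to 29962 and 45560 to 65619 CPM in neutrophil-like cells. Like *Mmp8*, both were lower in the 2 KO libraries than in the 2 WT libraries. *Mmp9* in macrophage-like cells was at 0.347, 0.327, 5.02 and 1.68 CPM, higher in the KO libraries. The part of free RNA in these values was not tested.

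*Mmp14*, the membrane-type Mmp that activates pro-Mmp2, was the member with the most UMIs (91864). It stood at 536, 502, 525 and 514 CPM in tenocyte-like cells, followed without overlap by FAP-like cells at 301 ± 16.6 CPM and chondrocyte-like cells at 252 ± 27.9 CPM. Its lowest mean was in mast-like cells (19.8 CPM). *Mmp2*, gelatinase A, had a flatter top. FAP-like cells stood at 127 ± 10.2 CPM, tenocyte-like cells at 117 ± 9.01 CPM and chondrocyte-like cells at 114 ± 11.7 CPM, and the libraries of the first 2 overlapped. *Mmp16*, a further membrane-type gene, was at 261, 211, 188 and 201 CPM in chondrocyte-like cells and at 184, 183, 179 and 171 CPM in FAP-like cells, so the groups lay close together without overlap. *Mmp23*, a small membrane-bound member, was at 39.7 ± 2.17 CPM in FAP-like cells and at 22.5 ± 3.57 CPM in tenocyte-like cells. In myogenic-like cells the means were 32.1 CPM for *Mmp14*, 14.6 CPM for *Mmp2*, 13.6 CPM for *Mmp16* and 0.580 CPM for *Mmp23*.

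*Mmp15*, also membrane-type, stood at 123, 122, 118 and 118 CPM in glial-like cells, at 62.0, 62.3, 57.4 and 50.6 CPM in endothelial-like cells and at 15.5 ± 1.47 CPM in smooth muscle or pericyte-like cells. Its lowest class was tenocyte-like cells at 0.828 CPM, where *Mmp14* was at its highest. *Mmp11*, stromelysin-3, was highest in smooth muscle or pericyte-like cells (34.4, 34.7, 30.8 and 34.4 CPM), and tenocyte-like cells came next without overlap at 7.96 ± 0.352 CPM.

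**Figure D2:**
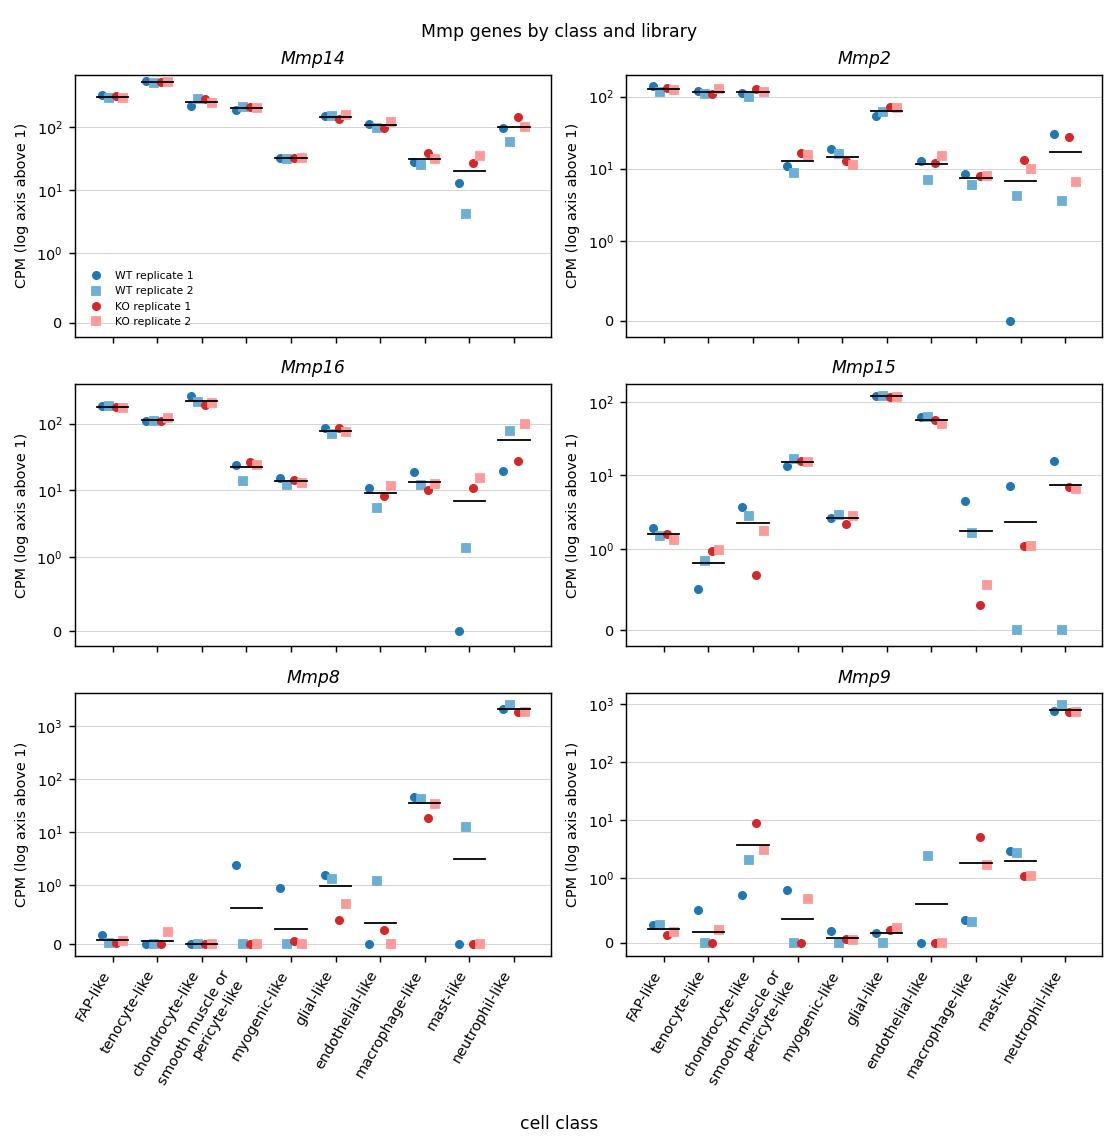
Levels of 6 *Mmp* genes by class (x axis), as CPM on a log axis that is linear below 1 (y axis). Points are the 4 libraries (blue WT, red KO) and black lines their means. *Mmp14* peaked in tenocyte-like cells (519 CPM) and *Mmp15* in glial-like cells (120 CPM). *Mmp8* and *Mmp9* peaked in neutrophil-like cells, and *Mmp8* also stood at 35.8 CPM in macrophage-like cells.

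Below 20 CPM, *Mmp13* (collagenase-3, known from hypertrophic cartilage) was highest in chondrocyte-like cells at 8.44, 25.2, 7.48 and 4.29 CPM, where WT replicate 2 stood apart from the other 3 libraries. In the same cells *Mmp3* stood at 0, 1.24, 11.6 and 3.43 CPM on 58 UMIs, so the libraries with most *Mmp13* and most *Mmp3* differed. The chondrocyte markers summed to between 10888 and 23071 CPM there. *Mmp19* was highest in macrophage-like cells at 12.8 ± 3.08 CPM. *Mmp12*, macrophage elastase, had 25 of its 31 UMIs in macrophage-like cells, nearly all in WT replicate 2 (7.85 CPM, against 0, 0 and 0.280 CPM in WT replicate 1, KO replicate 1 and KO replicate 2).

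The procollagen N-proteinases, which cut the amino-terminal propeptide from fibrillar procollagens, divided between classes. *Adamts2* was at 63.9 ± 6.65 CPM in FAP-like cells and at 58.1 ± 1.63 CPM in tenocyte-like cells, and these libraries overlapped. *Adamts3* stood at 115, 95.5, 103 and 90.8 CPM in tenocyte-like cells and at 68.8, 66.1, 42.9 and 70.5 CPM in chondrocyte-like cells, without overlap. FAP-like cells had 17.0 CPM of *Adamts3*. *Adamts14*, the remaining member of this group, had its highest class mean at 10.0 CPM.

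Among the proteoglycan-cutting members, *Adamts5* and *Adamts20* were highest in glial-like cells. *Adamts5* stood there at 338, 493, 431 and 457 CPM, above FAP-like cells at 161 ± 13.8 CPM. *Adamts20* stood at 200, 170, 205 and 149 CPM, and the next class was myogenic-like cells at 28.6, 24.9, 26.5 and 20.2 CPM. *Adamts1* was spread more evenly, at 224 ± 31.9 CPM in glial-like, 216 ± 27.8 CPM in tenocyte-like and 209 ± 12.1 CPM in FAP-like cells, which overlapped. *Adamts4* was highest in smooth muscle or pericyte-like cells at 40.1, 39.2, 40.0 and 37.1 CPM, above FAP-like cells at 18.0 ± 0.587 CPM. *Adamts9* was highest in endothelial-like cells at 312, 329, 291 and 351 CPM, and mast-like cells overlapped them at 203, 340, 227 and 259 CPM. Tenocyte-like cells followed with 173 ± 9.23 CPM of *Adamts9*. *Adamts8* was the only *Adamts* gene with its highest level in myogenic-like cells, at 14.6, 12.3, 12.0 and 11.0 CPM, above smooth muscle or pericyte-like cells at 7.80 ± 1.09 CPM.

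*Adamts12*, which can cut cartilage oligomeric matrix protein, was at 157 ± 14.6 CPM in smooth muscle or pericyte-like cells and at 149 ± 11.5 CPM in FAP-like cells, which overlapped. *Adamts16* was highest in the former at 28.9, 19.2, 28.8 and 22.2 CPM, with FAP-like cells at 4.15 ± 1.23 CPM. The fibrillin-associated *Adamts6* was at 89.7 ± 8.31 CPM in chondrocyte-like cells and at 80.1 ± 8.24 CPM in tenocyte-like cells, with overlap. *Adamts19*, whose substrate is not well known, stood at 158, 150, 168 and 132 CPM in FAP-like cells. Its second class, neutrophil-like cells, had 26.6, 7.15, 104 and 39.5 CPM on 38 UMIs. The FAP marker genes summed to 6486, 3768, 13526 and 5261 CPM in neutrophil-like cells, with KO replicate 1 highest in both. Their part in the *Adamts19* values was not tested.

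Of the Adamts-like genes, *Adamtsl1* stood at 343, 334, 335 and 293 CPM in FAP-like cells and at 167 ± 14.1 CPM in tenocyte-like cells. It overlaps *Sh3gl2* on the same strand, so some UMIs could belong to that gene. *Adamtsl3* had the reverse order, with 234, 211, 238 and 204 CPM in tenocyte-like cells and 100 ± 11.3 CPM in FAP-like cells. *Adamtsl4*, which binds fibrillin-1, was at 40.4 ± 5.20 CPM in chondrocyte-like cells and 36.1 ± 3.71 CPM in FAP-like cells, with overlap. Myogenic-like cells had the lowest mean of all 3, at 5.39 CPM of *Adamtsl1*, 2.10 CPM of *Adamtsl3* and 2.33 CPM of *Adamtsl4*.

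The 4 inhibitors each had a class order of their own. *Timp1* stood at 149, 134, 168 and 119 CPM in tenocyte-like cells, at 94.2 ± 10.6 CPM in chondrocyte-like cells and at 25.6 ± 6.33 CPM in FAP-like cells, with no overlap between neighbours. *Timp2*, the partner of Mmp14 in activating pro-Mmp2, stood at 445, 429, 413 and 435 CPM in tenocyte-like cells, again the class with most *Mmp14*. The neutrophil-like, glial-like, chondrocyte-like, FAP-like and macrophage-like classes followed, the first at 291 ± 61.9 CPM and the second at 268 ± 17.9 CPM. *Timp2* overlaps *Cep295nl* on the same strand. *Timp3* was at 547, 550, 535 and 486 CPM in glial-like cells, at 505, 531, 471 and 478 CPM in smooth muscle or pericyte-like cells and at 393, 445, 415 and 462 CPM in endothelial-like cells. The first 2 of these classes overlapped. *Timp4* was high in endothelial-like cells, where the libraries ranged widely at 133, 88.7, 128 and 56.4 CPM, and no other class had a mean above 8.32 CPM. Macrophage-like or mast-like cells had the lowest mean of all 4 genes.

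**Figure D3:**
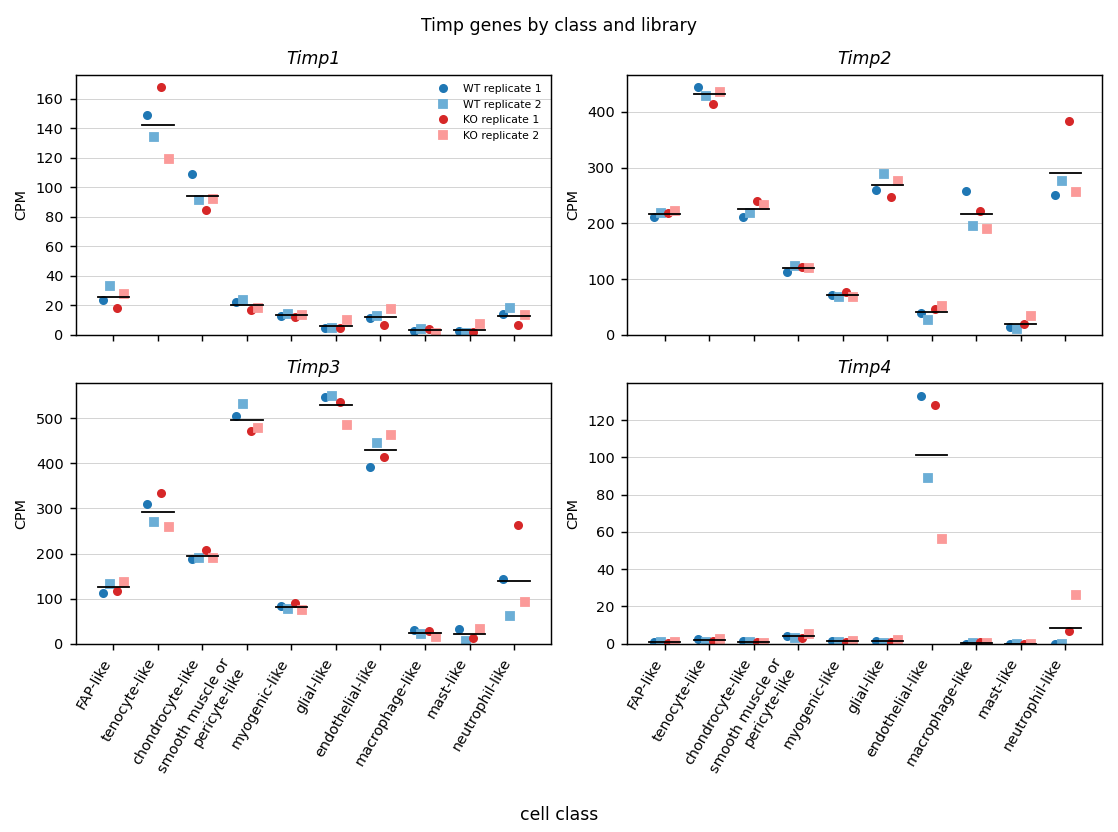
Levels of the 4 *Timp* genes by class (x axis) in CPM (y axis, from 0). Points are the 4 libraries (blue WT, red KO) and black lines their means. *Timp1* and *Timp2* were highest in tenocyte-like cells (142 and 431 CPM), *Timp3* in glial-like, smooth muscle or pericyte-like and endothelial-like cells (529, 496 and 429 CPM) and *Timp4* in endothelial-like cells (101 CPM).

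To place these levels beside all genes, each class was compared with FAP-like cells within libraries (edgeR quasi-likelihood test, Benjamini-Hochberg adjustment over 15501 genes, called at an adjusted p under 0.05 and at least 2-fold). The classes were built from the same cells, so the counts describe how the classes differ and are no independent test. Of the 50 members, 40 passed the filter on low counts. In myogenic-like cells 26 of the 40 were lower (65.0%, where 22.5% of all genes tested were lower) and 2 were higher (5.00%, against 11.0% of all genes), namely *Adamts8* and *Adamts20*. The median log2 difference was -1.57 over the members and -0.04 over all genes. *Adamtsl1* (log2 difference -5.78, SE 0.17) and *Mmp14* (-3.10, SE 0.10) were among those lower in myogenic-like cells.

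In endothelial-like cells 25 members were lower (62.5%, against 20.0% of all genes) and 7 were higher (17.5%, against 13.6%). Those higher were *Adamts9*, *Adamts18*, *Timp3*, *Timp4*, *Mmp15*, *Mmp25* and *Mmp28*, with *Timp4* at a log2 difference of 6.73 (SE 0.18). In glial-like cells 19 members were lower (47.5%, against 17.6% of all genes) and 8 were higher (20.0%, against 12.6%). Of the higher ones, *Mmp15* was at 6.21 (SE 0.12) and *Adamts20* at 5.44 (SE 0.13). In smooth muscle or pericyte-like cells 13 were lower (32.5%, against 14.1%) and 11 higher (27.5%, against 10.2%). Among the latter, *Mmp11* was at 2.15 (SE 0.09) and *Timp3* at 1.98 (SE 0.11).

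In tenocyte-like cells 11 members were lower (27.5%, against 9.72% of all genes) and 9 were higher (22.5%, against 6.64%). The 9 were *Adamts3*, *Adamts9*, *Adamtsl3*, *Timp1*, *Timp2*, *Timp3*, *Timp4*, *Mmp25* and *Mmp28*, so all 4 *Timp* genes were higher there than in FAP-like cells. In chondrocyte-like cells 12 were lower, against 10.3%, and 5 were higher, against 9.26%, with *Adamts3* at 1.89 (SE 0.10) and *Timp1* at 1.87 (SE 0.15). In macrophage-like cells 29 were lower (72.5%, against 25.2%) and 4 higher (10.0%, against 18.7%). In mast-like cells 27 were lower (67.5%, against 26.1%) and 3 higher (7.50%, against 16.2%), with *Adamts9* at 2.19 (SE 0.12).

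FAP-like cells were not uniform. Those of the cluster led by *Pi16* and *Ly6a* (5796 cells) were set against the cluster led by *Smoc2* and *Hpse2* (8863 cells) within libraries, a comparison added after the clusters were seen. Of 38 members tested, 14 were higher in the former (36.8%, against 7.99% of 15809 genes) and 2 were lower (5.26%, against 3.88%). *Adamts5* stood at 343, 284, 374 and 285 CPM in the *Pi16* and *Ly6a* cluster and at 79.8, 64.4, 76.3 and 61.2 CPM in the other, a log2 difference of 2.20 (SE 0.04). *Adamts19* stood at 273 CPM on average against 96.9 CPM, and *Adamtsl1* at 527 against 239 CPM. *Timp2* was at 371 against 132 CPM and *Timp1* at 44.0 against 9.66 CPM (2.17, SE 0.17).

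*Adamtsl2* and *Adamts8* were the 2 lower members. *Adamtsl2* was at 0.372, 0.296, 0.695 and 0.296 CPM in the *Pi16* and *Ly6a* cluster and at 8.54, 6.89, 6.12 and 9.42 CPM in the other. *Mmp2* was at 133 against 135 CPM (log2 difference -0.01, SE 0.04) and *Mmp14* at 324 against 286 CPM (log2 difference 0.19, SE 0.05). In the unnamed cluster led by *Ccl11* (1496 cells) *Mmp14* was at 364 CPM, *Timp2* at 207 CPM and *Adamts19* at 42.0 CPM.

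Within myogenic-like cells, the cluster led by muscle differentiation genes such as *Myog* and *Mymk* (1015 cells) was set against the cluster led by *Pax7* and *Myf5* (3974 cells), genes of muscle progenitors. Of 27 members tested, 17 were lower in the former (63.0%, against 16.8% of 12045 genes) and 4 were higher (14.8%, against 8.88%). *Adamts1* stood at 21.1, 17.6, 21.2 and 20.9 CPM in the *Myog* and *Mymk* cluster and at 101, 78.6, 102 and 82.9 CPM in the other (log2 difference -2.03, SE 0.09). *Mmp14* was at 14.1 against 37.4 CPM, *Timp2* at 37.0 against 87.1 CPM and *Timp3* at 34.3 against 98.2 CPM. *Mmp2* stood at 2.27 ± 1.38 CPM against 20.7 ± 5.48 CPM.

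The 4 genes that were higher in the *Myog* and *Mymk* cluster were *Adamts12*, *Adamts16*, *Adamtsl1* and *Mmp15*. *Adamts12* stood at 58.9 ± 12.1 CPM against 26.3 ± 2.72 CPM (log2 difference 1.28, SE 0.09). The other 3 had means of at most 13.7 CPM in that cluster. *Adamts20*, one of the genes higher in myogenic-like than in FAP-like cells, was at 6.59 CPM in the *Myog* and *Mymk* cluster, at 26.8 CPM in the *Pax7* and *Myf5* cluster and at 31.8 CPM in the cycling cluster with *Myod1*.

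**Figure D4:**
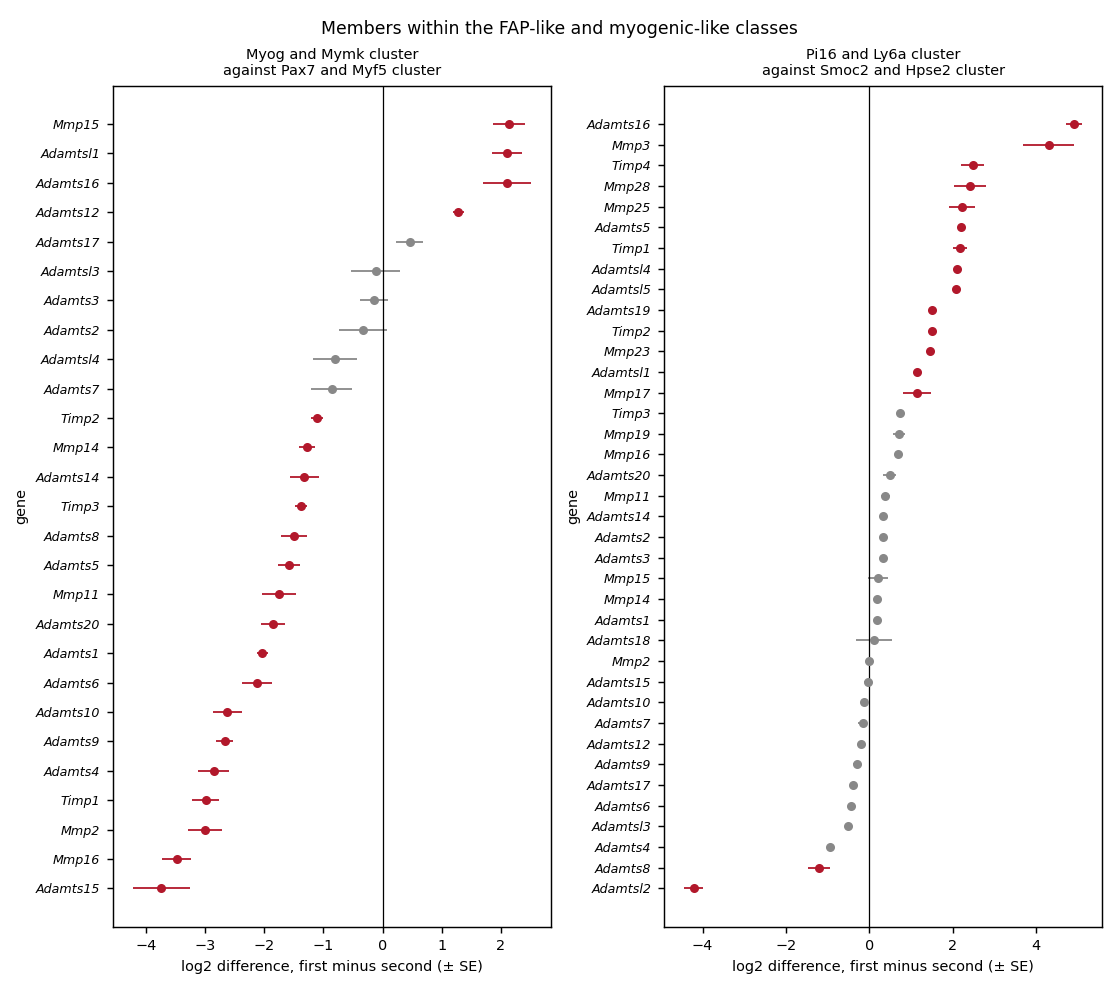
Log2 difference (x axis, with SE) of each member tested (y axis) between clusters, on the left the *Myog* and *Mymk* against the *Pax7* and *Myf5* cluster and on the right the *Pi16* and *Ly6a* against the *Smoc2* and *Hpse2* cluster. Red points had an adjusted p under 0.05 and at least a 2-fold difference (edgeR). Of the 27 members on the left 17 were red and lower, and of the 38 on the right 14 were red and higher.

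The comparison of the study's design, KO against WT, was then made in each class with summed UMIs (edgeR quasi-likelihood test, 2 libraries per genotype, Benjamini-Hochberg adjustment over all genes tested, threshold 0.05). No member passed in any of the 9 classes tested or in all kept cells together. In FAP-like cells 0 of 41 members passed (0% of 18156 genes passed), and 0 had an unadjusted p under 0.05 (2.47% of all genes had). In myogenic-like cells 0 of 32 passed (0% of 14713 genes), and 3 had an unadjusted p under 0.05 (9.38%, against 3.74% of genes). DESeq2 called 0 members in each of the 9 classes. In all kept cells 0 of 44 passed by edgeR (0% of 20419 genes). An unadjusted p under 0.05 was reached by 4 (9.09%, against 4.66% of genes). With 2 libraries per genotype, a p that misses the threshold does not show that levels are equal, and whether the spread is biological or technical cannot be told apart.

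*Mmp14* stood at 321 and 285 CPM in WT and 307 and 289 CPM in KO FAP-like cells, which overlapped. *Mmp2* stood at 139 and 116 CPM against 132 and 122 CPM. *Adamts19* was at 158 and 150 CPM against 168 and 132 CPM (log2 KO minus WT -0.01, SE 0.12). *Adamts1* was at 199 and 202 CPM against 226 and 211 CPM (0.15, SE 0.07, adjusted p = 1.000), with both KO libraries above both WT libraries. Summed over each family, the *Timp* genes were at 348 and 385 CPM in WT and 354 and 388 CPM in KO FAP-like cells. The *Adamts* sum was at 1022 and 972 CPM against 1050 and 945 CPM, the *Mmp* sum at 701 and 640 against 677 and 637 CPM, and the *Adamtsl* sum at 516 and 478 against 485 and 434 CPM. All 4 sums overlapped between genotypes in FAP-like cells.

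In myogenic-like cells the *Mmp* sum was at 78.7 and 68.2 CPM in WT and 67.5 and 67.5 CPM in KO, without overlap, with p = 0.333 by a two-sided exact permutation over libraries, which cannot give a lower value at 2 against 2. In this sum *Mmp14* stood at 32.6 and 31.1 CPM in WT and 31.9 and 32.6 CPM in KO. *Mmp16* was at 15.5 and 12.0 against 14.1 and 12.8 CPM, and both genes overlapped between genotypes. *Mmp2*, also part of the sum, stood at 18.5 and 15.9 CPM against 12.6 and 11.4 CPM. Its log2 difference was -0.48 (SE 0.13, unadjusted p = 0.00364, adjusted p = 0.978 by edgeR). The other 2 members with an unadjusted p under 0.05, *Adamtsl1* and *Adamts19*, were higher in both KO libraries, at means of 5.39 and 1.56 CPM. Their log2 differences were 0.63 (SE 0.18) and 0.96 (SE 0.36), each with an adjusted p of 0.978 by edgeR. *Adamtsl1*, *Adamts19* and *Mmp2* were each higher in FAP-like than in myogenic-like cells. The FAP markers summed to 827 and 707 CPM in WT and 856 and 882 CPM in KO myogenic-like cells, and their part was not tested. An interaction of genotype and class, myogenic-like against FAP-like, asked whether the effects of KO were unequal, and 0 of 38 members passed (0.00556% of 17981 genes did). An unadjusted p under 0.05 was found for 4 members (10.5%, against 2.90% of genes). *Mmp2* had a log2 difference of effects of -0.52 (SE 0.09, adjusted p = 0.742, edgeR) and *Adamts8* of -0.55 (SE 0.21). *Adamtsl1* at 0.70 (SE 0.13) and *Adamts19* at 0.96 (SE 0.22) went the other way.

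In smooth muscle or pericyte-like cells 0 of 33 members passed (0.103% of 12614 genes did), and 9 had an unadjusted p under 0.05 (27.3%, against 5.35% of genes). *Mmp2* stood at 10.8 and 8.68 CPM in WT and 16.4 and 15.7 CPM in KO (log2 difference 0.73, SE 0.22, adjusted p = 0.381). *Adamts5* stood at 11.2 and 9.62 against 24.1 and 12.1 CPM (0.82, SE 0.29, adjusted p = 0.778), with KO replicate 1 far above the rest. *Adamtsl1* was at 56.4 and 49.5 against 68.2 and 58.2 CPM (0.27, SE 0.12; 0.15 without KO replicate 1 and 0.17 without WT replicate 2), *Adamts12* at 163 and 175 against 147 and 145 CPM (-0.20, SE 0.08) and *Adamts17* at 66.0 and 61.7 against 54.2 and 49.9 CPM (-0.28, SE 0.11). The smallest adjusted p of any member, 0.0667, was that of *Adamts19* in these cells, at 2.65 and 3.05 against 13.4 and 6.51 CPM (log2 difference 1.83, SE 0.37). *Adamts19* passed there without KO replicate 2, without either WT replicate and with the replicate number as a block. *Adamts5* passed without KO replicate 2 (log2 difference 1.22) and fell to 0.24 without KO replicate 1.

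The FAP marker genes summed to 2717 and 2312 CPM in WT and 4111 and 3263 CPM in KO smooth muscle or pericyte-like cells. KO replicate 1 was highest, as for *Adamts19* and *Adamts5*. Of this marker list, which holds *Col1a1*, *Col1a2* and *Col3a1*, 9 of 10 genes had a mean of at least 10 CPM there. How much of the sum these cells made themselves is not known. In FAP-like cells the same markers summed to 26372 to 30382 CPM. They were not particular to that class, with 36224 to 40600 CPM in tenocyte-like, 16283 to 18284 CPM in chondrocyte-like and 10295 to 11340 CPM in glial-like cells. Their part in the differences of *Mmp2*, *Adamts5*, *Adamtsl1* and *Adamts19* was not tested. These members were all higher in FAP-like than in smooth muscle or pericyte-like cells. So were *Adamtsl3* (log2 KO minus WT 1.05, SE 0.31) and *Adamts20* (1.21, SE 0.52), both higher in KO. *Adamtsl5* was also higher in FAP-like cells, but lower in the KO smooth muscle or pericyte-like cells. It stood there at 8.35 and 6.80 against 4.26 and 4.94 CPM (-0.71, SE 0.30). *Btg2* and *Klf2*, genes that respond to tissue dissociation, were called higher in the same cells, at 287 and 286 against 399 and 422 CPM and at 173 and 201 against 259 and 244 CPM (adjusted p = 0.00297 and 0.0479, edgeR). Of the 20 genes of that dissociation stress list tested there, an unadjusted p under 0.05 was reached by 11 with a higher and 2 with a lower level in KO. The latter were the heat shock genes *Hspa1a* (-0.25, SE 0.09) and *Hspa1b* (-0.50, SE 0.13).

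In endothelial-like cells 0 of 27 members passed (0.00849% of 11775 genes did). An unadjusted p under 0.05 was reached by 3 (11.1%, against 3.56% of genes). *Timp2* stood at 40.1 and 27.3 CPM in WT and 46.2 and 52.0 CPM in KO (log2 difference 0.55, SE 0.18), *Adamtsl1* at 10.4 and 7.49 against 14.9 and 14.3 CPM (0.71, SE 0.26) and *Adamts1* at 82.1 and 78.2 against 85.2 and 106 CPM (0.26, SE 0.12), each with an adjusted p of 1.000. The *Timp2* difference was 0.87 without WT replicate 1 and 0.29 without WT replicate 2, and that of *Adamts1* 0.41 without KO replicate 1 and 0.10 without KO replicate 2. The FAP markers summed to 1634 and 1184 CPM in WT and 1932 and 2259 CPM in KO endothelial-like cells, and their part was not tested. *Timp4*, the endothelial inhibitor, was at 133 and 88.7 against 128 and 56.4 CPM, with overlap, and passed only when KO replicate 1 was left out.

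In mast-like cells only 8 members passed the filter on low counts. Of these 0 passed the test (0.238% of 7129 genes did). An unadjusted p under 0.05 was reached by 3 (37.5%, against 6.99% of genes), all higher in KO. *Adamtsl1* had 0 and 1.39 CPM in WT and 25.9 and 14.2 CPM in KO (adjusted p = 0.185). *Mmp14* stood at 13.0 and 4.16 against 27.0 and 34.9 CPM (log2 difference 1.84, SE 0.49) and *Timp2* at 14.5 and 11.1 against 19.4 and 33.8 CPM (1.05, SE 0.42; 0.61 without KO replicate 2). The matrix genes *Fn1*, *Col1a1*, *Col1a2* and *Vcan* were called higher in the same KO cells, with *Fn1* at 10.1 and 8.32 against 70.2 and 75.2 CPM. The FAP markers, which include *Col1a1* and *Col1a2*, summed to 871 and 613 CPM in WT and 2300 and 2152 CPM in KO mast-like cells. They moved with these members but are not separate from the called matrix genes, and their part was not tested. *Adamtsl1* in mast-like cells passed without either WT replicate (adjusted p = 0.0119 without WT replicate 1 and 0.00158 without WT replicate 2), and its log2 difference was 7.09 without the latter. *Mmp14* passed without WT replicate 1 (log2 difference 2.87, adjusted p = 0.00195) and was at 1.20 without WT replicate 2.

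In glial-like cells 0 of 30 members passed (0% of 12842 genes), and 4 had an unadjusted p under 0.05 (13.3%, against 3.85% of genes). *Adamtsl1* stood at 85.4 and 84.3 CPM in WT and 115 and 108 CPM in KO (log2 difference 0.41, SE 0.09, adjusted p = 0.998). *Mmp2* was at 53.5 and 61.6 against 71.0 and 68.8 CPM (0.29, SE 0.11; 0.19 without WT replicate 1) and *Adamts17* at 104 and 107 against 82.4 and 88.9 CPM (-0.29, SE 0.10). Here the FAP markers were alike, at 10556 and 11340 CPM in WT and 10295 and 10800 CPM in KO. *Adamtsl1* in glial-like cells passed once the replicate number was added as a block (adjusted p = 0.00715), and nothing in the labels says that the numbers pair the libraries.

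In chondrocyte-like cells 0 of 35 members passed (0% of 13297 genes) and 4 had an unadjusted p under 0.05 (11.4%, against 2.40% of genes). *Mmp13* stood at 8.44 and 25.2 CPM in WT and 7.48 and 4.29 CPM in KO (log2 difference -1.82, SE 0.60, adjusted p = 1.000). The other 3 were higher in both KO libraries, each with an adjusted p of 1.000. *Mmp3* had a log2 difference of 2.88 (SE 0.92), *Adamts15* of 2.19 (SE 0.69) and *Mmp9* of 1.56 (SE 0.64), on 58, 39 and 59 UMIs. Without WT replicate 1 the *Mmp13* difference was -2.29 and passed (adjusted p = 0.00113), and without WT replicate 2, the library that stood apart, it was -0.75. Chondrocyte-like cells numbered 391 and 703 in the WT and 181 and 1023 in the KO libraries, and the dissection limits are not given in the sources used here.

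In macrophage-like cells 0 of 20 members passed (0% of 11526 genes) and 3 had an unadjusted p under 0.05 (4.03% of genes). *Mmp8* stood at 47.2 and 43.5 CPM in WT and 18.8 and 33.8 CPM in KO (log2 difference -0.74, SE 0.26; -0.37 without KO replicate 1 and -1.26 without KO replicate 2), beside *S100a8* and *S100a9*, which were also lower in both KO libraries as given above. *Mmp14* was at 27.4 and 24.9 against 39.2 and 31.3 CPM (0.46, SE 0.19). In tenocyte-like cells 0 of 29 members passed (0% of 12900 genes) and 1 had an unadjusted p under 0.05 (3.45%, against 3.19% of genes). This was *Mmp23* at 25.5 and 25.4 against 18.3 and 20.8 CPM (-0.34, SE 0.15).

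Over all kept cells, *Adamts6* was at 47.2 and 49.8 CPM in WT and 41.9 and 41.7 CPM in KO (log2 difference -0.17, SE 0.06, adjusted p = 0.954). *Mmp8* was at 14.7 and 8.74 against 3.50 and 3.82 CPM and *Mmp9* at 4.91 and 3.14 against 1.46 and 1.51 CPM over all kept cells. DESeq2 called these 2 genes, among 51 called of 20419, and edgeR did not. The number of neutrophil-like cells, 103 and 60 against 25 and 25, moved with both genes. Such sums alone do not tell fewer cells from less RNA per cell, and the part of each was not tested. Median UMIs per neutrophil-like cell were 3492 and 3735 in WT and 3669 and 4273 in KO. *Mmp8* in these cells was at 2128 and 2510 CPM in WT and 1906 and 1890 CPM in KO. Within neutrophil-like cells *Mmp9* was at 761 and 944 CPM in WT and 717 and 718 CPM in KO.

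**Figure D5:**
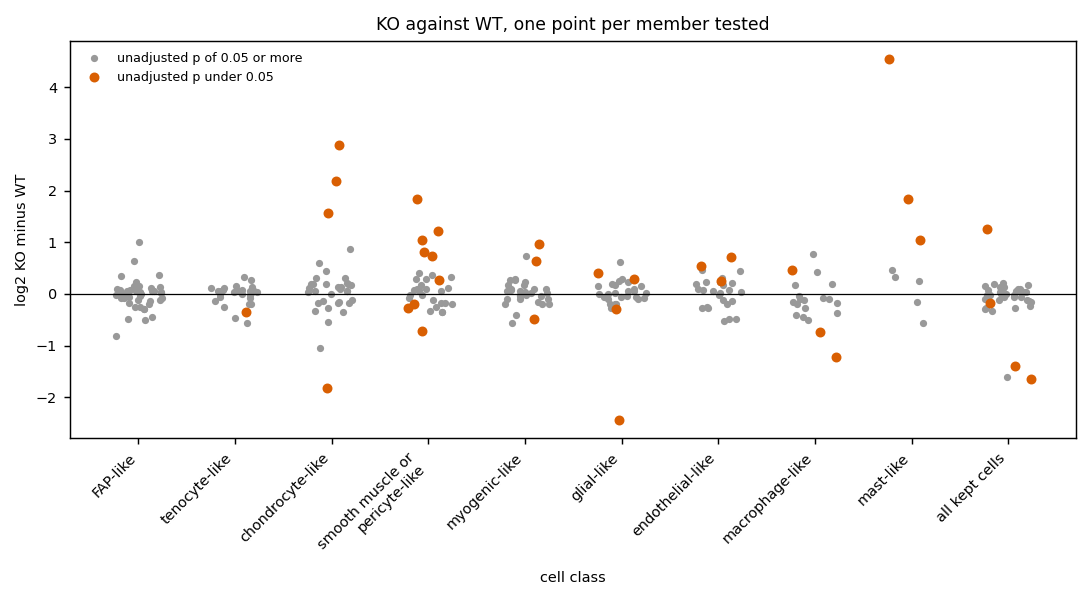
Log2 KO minus WT (y axis) of each member tested, 1 point per member, in 9 classes and in all kept cells (x axis). Orange points had an unadjusted p under 0.05 (edgeR), 9 of them in smooth muscle or pericyte-like cells and 0 in FAP-like cells, and no point passed the adjusted threshold.

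Genes that act with the members were read from lists of activating proteases, further inhibitors, related metalloproteases and matrix substrates. In FAP-like cells 0 of 8 tested activators, 0 of 11 inhibitors, 0 of 13 relatives and 0 of 17 substrates passed KO against WT in either direction, and the same held in myogenic-like cells for 6, 9, 13 and 17 tested genes. Among activators, *Furin*, which cleaves the propeptide of membrane-type Mmps and Adamts proteases, stood at 31.7 and 28.4 CPM in WT and 29.6 and 30.8 CPM in KO FAP-like cells. *Thbs1*, thrombospondin-1, from the inhibitor list stood at 255 and 261 against 316 and 279 CPM (log2 difference 0.24, SE 0.08, adjusted p = 1.000). *Adam12*, one of the relatives, stood at 112 and 131 against 128 and 123 CPM. *Col1a1*, one of the substrates, stood at 7865 and 7442 against 7778 and 7093 CPM. Of 20 genes of a dissociation stress list, 12 had an unadjusted p under 0.05 and were higher in KO FAP-like cells and 0 were lower, with *Fos* at 1683 and 1737 against 1984 and 1873 CPM (0.20, SE 0.07, adjusted p = 1.000), and none passed the adjusted threshold.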

How the data were processed

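Single-cell suspensions of fetal leg muscle were run on the 10x Chromium 3′ v3 chemistry. Per the labels and the study's methods, the authors aligned reads to mm10 with Cell Ranger 7.2.0 and deposited UMI counts, not normalised, in a gene by cell matrix of each library. Whether intronic reads were counted is not given in the sources used here. The study's limits on cells were used (from 1000 to 6000 genes, from 1000 to 25000 UMIs, mitochondrial share below 8%). Libraries were normalised to 10000 UMIs per cell and clustered together in scanpy 1.11.5 (3000 variable genes without the members, 30 components, 20 neighbours, Leiden resolution 0.3), without the Harmony correction of the study. Clusters were named from marker lists. The threshold for naming FAP-like clusters was set after the clusters were seen, so shares can differ from those of the study. Doublets were called by Scrublet (1.65% to 2.56% of kept cells) and removed only as an alternative.

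Counts were summed per library and class. Differences were tested with edgeR 4.0.16 (quasi-likelihood, TMM, low-count filter, Benjamini-Hochberg adjustment over all genes) in R 4.3.3, with DESeq2 1.42.0 as an alternative, and the scripts were tested on simulated data. P-values of KO against WT rest on 2 libraries per genotype, with the spread of each gene moderated by that of all genes. Class, cluster and interaction tests were made with library as a block. Family sums were compared by exact permutation. For levels, up to 5 members per highest class with at least 20 CPM and all *Timp* genes were named. For KO against WT, every called member was named, with each that had an unadjusted p under 0.05, at least 10 CPM and no overlap between genotypes. The levels of *Mmp3*, *Mmp12*, *Mmp13*, *Mmp19*, *Adamts8*, *Adamts14* and *Adamtsl2* fall outside this rule. So do the genotype values of all members in FAP-like cells and of *Timp4* in endothelial-like cells. The same holds for *Mmp3*, *Mmp9* and *Adamts15* in chondrocyte-like cells. It also holds for *Adamts19*, *Adamts20*, *Adamtsl3* and *Adamtsl5* in smooth muscle or pericyte-like cells. *Adamtsl1*, *Adamts19*, *Mmp14* and *Mmp16* in myogenic-like cells fall outside it as well. *Mmp8* and *Mmp9* in all kept cells and in neutrophil-like cells, the interaction values, and *Hspa1a* and *Hspa1b* do too. All these, and the cluster comparisons, were chosen after their values were seen. From the other lists, genes were taken from the 3 with most CPM in FAP-like cells and from those called. The members and lists were chosen with earlier results of these data known.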

Additional observations from a re-analysis of the deposited data

How the results depend on the processing

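Against 0 members called for KO against WT, DESeq2 called 2 (*Mmp8* and *Mmp9* in all kept cells, where it called 51 of 20419 genes). Centring within libraries before clustering called 1 (*Adamts19* in smooth muscle or pericyte-like cells, where 19 of 12625 genes were called). Testing without the low-count filter called 9. Of these, 3 were in smooth muscle or pericyte-like cells (104 of 21388 genes called) and 2 in macrophage-like cells (100 of 20227). In chondrocyte-like cells this test called 2 (15 of 22030), in glial-like cells 1 (28 of 21754) and in mast-like cells 1 (50 of 16599). The fit with the replicate number as a block called 5 (*Adamtsl1* and *Mmp25* in glial-like cells, *Adamts19*, *Adamts5* and *Adamtsl3* in smooth muscle or pericyte-like cells). It called 48 of 12842 genes in glial-like cells and 152 of 12614 in smooth muscle or pericyte-like cells. Same-numbered libraries had correlated deviations (0.311 in FAP-like, 0.233 in myogenic-like and 0.384 in all kept cells), but with 2 pairs the numbers are not shown to pair them. Leaving out 1 library gave 1 to 6 calls, the most without WT replicate 1. For the interaction, the test without the filter called 2 members and the other alternatives 0. The causes were not tested. Class comparisons gave 205 to 218 calls against 211, and 26 to 30 of 30 members kept their highest class, with *Mmp16*, *Mmp2*, *Timp2* and *Adamts1* changing when cells were centred within libraries. The cluster comparisons gave 21 to 24 and 15 to 16 calls, against 21 and 16. With 1 library left out, KO minus WT sums in CPM ran in FAP-like cells from -44.7 to 16.9 (*Mmp*), -52.1 to 53.1 (*Adamts*), -63.1 to -12.4 (*Adamtsl*) and -14.5 to 22.6 (*Timp*). In myogenic-like cells they ran from -11.2 to -0.745, -31.3 to 13.1, 0.817 to 3.12 and -7.48 to 15.5 in the same order. In all kept cells they ran from -53.8 to -21.7, -58.1 to 19.3, -35.4 to -10.7 and -30.4 to -17.3. Of 255 alternative values for the 20 named KO differences, 244 kept their side of the threshold, 11 newly passed it and 0 changed direction. The 20 were named partly because both KO libraries lay on one side of both WT libraries. The lack of reversals follows largely from that choice and is no sign of stability. None of the 20 had passed in the main fit, so none could lose a call.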
